A study of Mus musculus with 24 samples.

Results

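The transcripts of mouse heart ventricle were compared between neonates and animals of 1 week of age, on 3 arrays of each age. The arrays belong to a reference series of FVB mice, an inbred strain, that follows the ventricle from embryonic day 12.5 (E12.5) to 1 year on 24 single-channel Affymetrix arrays in 8 groups of 3. No genotype change, surgery or drug is named for either group, and age is the factor that the labels give between them. Their sex and the age of the neonates in days are not given. Titles of the neonatal samples carry a pair of numbers where those of 1 week carry a single number. Whether an array stands for an animal or for a pool is not stated. A p-value here speaks of the spread among arrays within groups, pooled over all 24 arrays and not the 6 compared alone. Part of that spread may be technical. All probe sets (groups of short probes against a transcript) that were not 0 on all 24 arrays and were not controls entered the comparison, which left 9977 of 12654. Of these, 9952 rose above a low floor on at least 3 arrays and were tested. A gene was represented by its probe set of highest mean signal, which gave 7406 genes.

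Around birth the left ventricle begins to pump against a higher systemic pressure, and the oxygen available to the heart rises. Over the days that follow, cardiac muscle cells enlarge, build up mitochondria, exchange fetal for adult forms of contractile and metabolic proteins, and largely leave the cell cycle. Other cells of the ventricle wall, among them fibroblasts, endothelial cells and resident macrophages, expand in the same period. The comparison addresses which transcripts differed across this interval. In a bulk sample such as these, more cells of a type and more RNA per cell cannot be told apart.

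Median signals ran from 195.7, on the 1-week array 3, to 221.5. A background level of 124.6 was set from 19 probe sets against bacterial and yeast transcripts, and 36.6% to 39.2% of values lay below it on each array, the most again on the 1-week array 3. Log2 signals correlated with Pearson r of 0.922 to 0.937 across probe sets within a group and of 0.906 to 0.937 between groups, lowest for the 1-week array 3 (0.906 to 0.915). The ratio of 3' to 5' actin signal, a measure of RNA integrity, was 1.112 to 1.283 in neonates and lower, at 0.996 to 1.084, at 1 week, with no overlap. That of Gapdh overlapped, at 0.79 to 0.858 and 0.824 to 0.885, as did the signal of 18S ribosomal RNA, which ran from 174.7 on the 1-week array 3 to 1135.7 on the 1-week array 1. The part of these array differences in the results was not tested. The 7 measured members of the ventricular muscle list summed to 135222 to 152371 in neonates and 148740 to 158046 at 1 week. The 11 atrial markers summed to 29449 to 30855 and 21887 to 26941. Heart muscle genes were thus bright on all 6 arrays, but these sums were not a test of ventricle against atrium. Xist, the RNA of the inactive X chromosome, was high on array 1 of the neonates (2495.6) and array 1 of 1 week (1244), against 12.8 to 131.3 on the other 4. The Y-linked Eif2s3y was at 11.9 and 6 on those 2 arrays and at 228.8 to 535.8 on the other 4, which puts 1 Xist-high array in each group.

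By limma fitted to all 24 arrays, with Benjamini-Hochberg adjustment at 0.05, 209 of 9952 probe sets passed (2.10%). The 131 that rose were 1.32% of those tested and the 78 that fell 0.784%. Counted by gene, 171 of 7406 passed (2.31%), 109 higher (1.47%) and 62 lower (0.837%). These shares of all genes are the ones to set beside every count of list members below. Of 41 genes with several probe sets and any of them called, 3 had all called and 7 had changes of opposite sign. The step before, from E12.5 to neonate, gave 1687 probe sets (17.0%), and the step after, from 1 week to 4 weeks, gave 909 (9.13%). The changes that passed had a median size of 1.07 on the log2 scale and none was smaller than 0.40, while the median over all probe sets was -0.01. All 209 had the 3 arrays of 1 age above the 3 of the other, a separation that 1846 probe sets showed (18.5%). With values floored at the background level 324 passed, 164 higher and 160 lower. Fitted on these 6 arrays alone, which holds fewer samples, 16 passed, 14 of them among the 209. Leaving out 1 array gave 109 to 240 in all: 114 without the 1-week array 3, 118 without the neonatal array 1 and 109 without the neonatal array 2. The number lower ranged from 33 without the neonatal array 2 to 108 without the 1-week array 2. Among the genes named here, Mapt, Bmp7, Bex4, Peg3, Acta1, H2-Q4 and Ckmt2 passed in the fit on 6 arrays and without any of the 6.

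**Figure D1:**
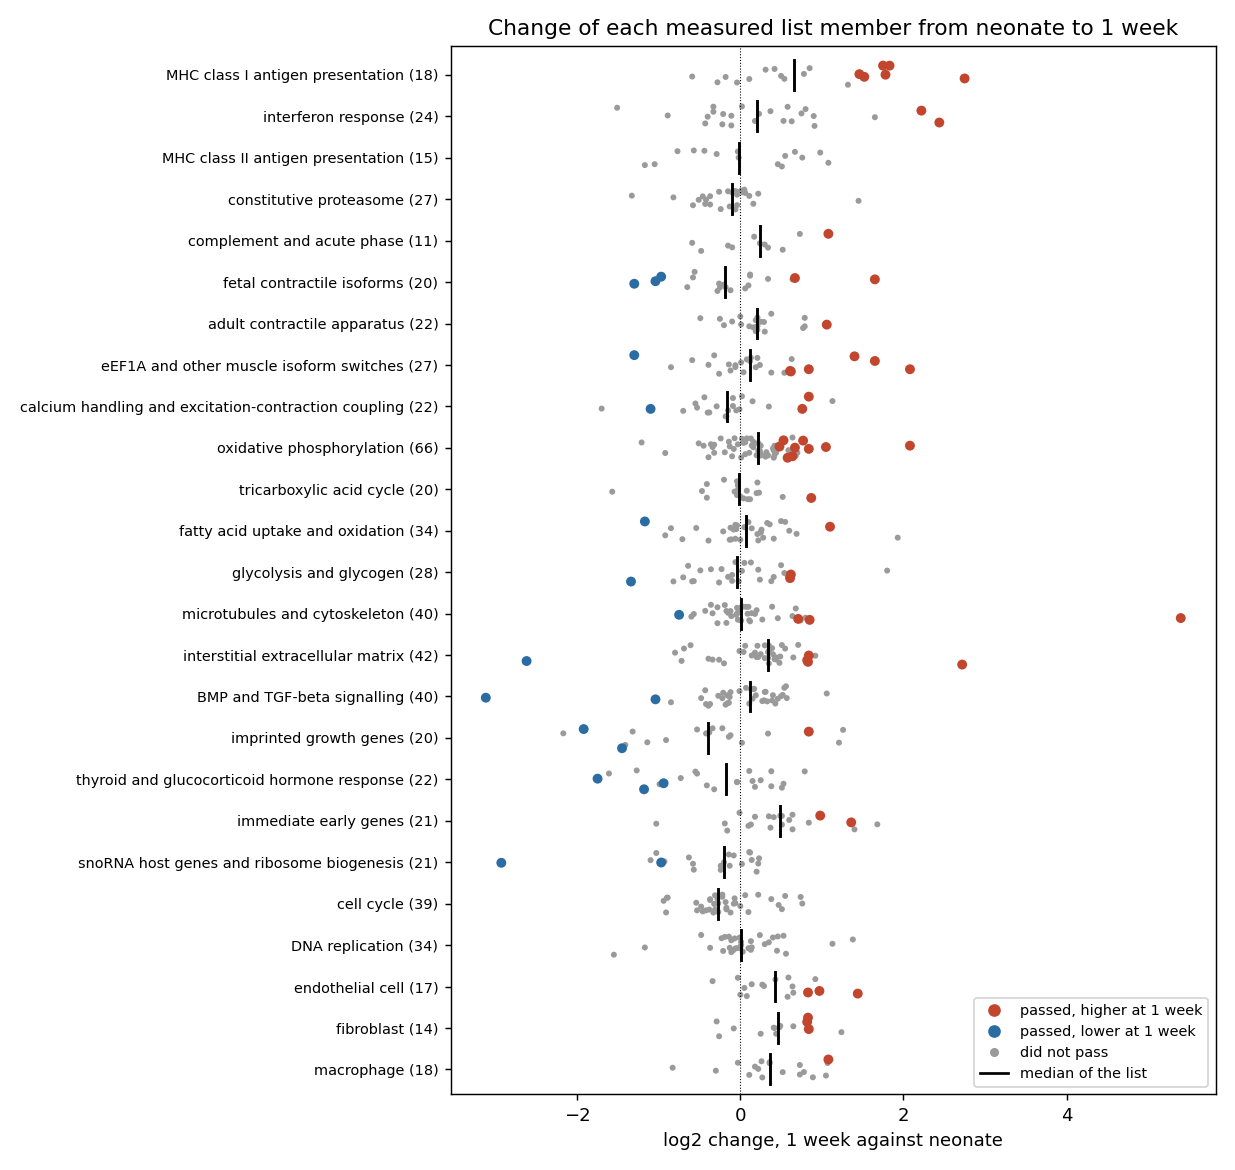
Log2 change from neonate to 1 week (horizontal axis) of every measured member of 25 gene lists (rows, with the number measured). Large red and blue points passed at an adjusted p under 0.05, small grey points did not, and the black bar is the list's median. Class I antigen presentation had its median at 0.66 and 6 of 18 members passed, where 2.31% of all genes did. No member of the cell cycle and DNA replication lists passed.

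Antigen presentation by class I molecules of the major histocompatibility complex (MHC) was among the lists with several calls. The lists were chosen with earlier results of these data known, so their counts describe and do not test. Class I molecules sit on the surface of nearly all nucleated cells and display peptides cut by the proteasome to CD8 T cells. Each consists of a heavy chain, encoded in the mouse by H2-K, H2-D, H2-Q and related genes on chromosome 17, and a shared light chain, B2m. Of 18 measured members of the list, 6 rose, where 1.47% of all genes did, 0 fell and 12 did not pass. Their median log2 change was 0.66 against -0.01 over all genes. The 6 were H2-K1, H2-D1, H2-Q4, B2m and the immunoproteasome subunits Psmb8 and Psmb9.

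The promoters of these genes are shown because a compact upstream region is known to set how strongly class I genes are read, through sites for nuclear factor kappa B (NF-kappaB) and for interferon regulatory factors. RefSeq windows of GRCm38.p6 from 250 bases before to 50 bases after the start of each gene were searched on both strands for a form of the NF-kappaB site, GGG and TTCCC parted by any 2 bases, and for a form of the interferon response element, GAAA and GAAA parted by any 2 bases. Matches are in capitals in these windows, written 5′ to 3′ on the strand of the gene, at chr17:34000298-34000597 (minus strand) for H2-K1, chr17:35262844-35263143 (plus) for H2-D1, chr17:35379367-35379666 (plus) for H2-Q4 and chr2:122147437-122147736 (plus) for B2m.
H2-K1: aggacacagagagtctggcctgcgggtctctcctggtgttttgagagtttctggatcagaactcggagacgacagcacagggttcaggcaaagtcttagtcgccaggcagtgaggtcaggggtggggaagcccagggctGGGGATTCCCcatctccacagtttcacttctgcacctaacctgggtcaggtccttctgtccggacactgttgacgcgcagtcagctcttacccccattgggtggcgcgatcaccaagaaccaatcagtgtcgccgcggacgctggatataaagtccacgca
H2-D1: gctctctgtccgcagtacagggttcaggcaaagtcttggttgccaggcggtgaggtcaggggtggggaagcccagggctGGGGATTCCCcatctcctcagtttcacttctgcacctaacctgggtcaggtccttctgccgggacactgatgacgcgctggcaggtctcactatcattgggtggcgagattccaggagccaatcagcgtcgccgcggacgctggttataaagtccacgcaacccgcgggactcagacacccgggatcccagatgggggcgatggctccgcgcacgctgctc
H2-Q4: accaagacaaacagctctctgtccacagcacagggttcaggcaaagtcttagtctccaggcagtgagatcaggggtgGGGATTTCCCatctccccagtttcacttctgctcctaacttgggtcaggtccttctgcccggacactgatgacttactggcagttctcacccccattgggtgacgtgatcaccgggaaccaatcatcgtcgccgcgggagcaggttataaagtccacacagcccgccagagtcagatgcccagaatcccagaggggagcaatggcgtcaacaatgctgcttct
B2m: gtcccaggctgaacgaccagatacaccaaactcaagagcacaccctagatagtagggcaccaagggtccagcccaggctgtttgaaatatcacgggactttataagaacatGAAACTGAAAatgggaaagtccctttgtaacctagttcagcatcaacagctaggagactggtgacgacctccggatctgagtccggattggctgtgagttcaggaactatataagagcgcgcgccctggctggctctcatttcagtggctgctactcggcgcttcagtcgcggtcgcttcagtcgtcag
The heavy chain windows each held the NF-kappaB form, starting 111, 171 and 173 bases before the gene start in H2-K1, H2-D1 and H2-Q4, and B2m held the interferon form from 139 bases before. Among all 32851 promoter windows, 1.75% held the first motif and 3.44% the second. Of the 15 measured list members with a window, 3 held the NF-kappaB form, all among the 6 that rose, and 2 held the interferon form, 1 of them B2m. Those 3 are the heavy chain windows above, which are alike in sequence and do not count as separate cases. Whether either motif had a part in the rises was not tested. The windows of Psmb8, Psmb9 and Irf1 held neither of these letters. Only these forms were searched, so a window without a match may hold another form of either site. A match describes letters and not binding.

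H2-K1 read 1479, 1823.9 and 1412.5 on the neonatal arrays and 8605.9, 3537.9 and 5100.7 at 1 week. All 3 of the later arrays lay above the neonatal ones, with array 1 highest. The rise was 1.78 ± 0.20 on the log2 scale (SE from the fit on 24 arrays, n = 3 per group), or 3.44-fold (limma adjusted p = 9.74e-06). H2-D1 went from 1343.6, 1661.1 and 1541.9 to 6984.3, 3593.4 and 5183.3, a rise of 1.75 ± 0.17 (adjusted p = 7.51e-07). The order of the 1-week arrays was the same as for H2-K1. H2-Q4, a class I gene of the Q region, had lower and tighter signals of 376.8, 299.8 and 374.5 in neonates and 1400.9, 1101.3 and 1232.5 at 1 week (1.83 ± 0.21, adjusted p = 1.13e-05). H2-K2, from 759.3, 1161.1 and 233.7 to 5222.2, 2880.2 and 3418.7, and H2-D4, from 44, 45.9 and 39.6 to 641.1, 245.4 and 482.1, were among the 20 largest rises in the comparison. With values floored at the background level H2-D4 rose by 1.76 (adjusted p = 0.0115). The other probe set of H2-D4 lay between 13 and 18.6 on the 6 arrays, under the background level throughout.

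Class I heavy chains are so alike in sequence that probe sets for them can bind the RNA of several members, so the signal of a member cannot be assigned to it alone. Over all 31 tested probe sets annotated to a class I heavy chain, 13 rose, 0 fell and the median change was 0.85. The summed signal of the 13 was 7325, 8737 and 7031 in neonates against 37012, 18496 and 26224 at 1 week. The 1-week array 2 gave the lowest signal of its group for all 13 and array 1 the highest for 11. The rise was thus uneven between the later arrays but present on each. Of the 13 calls, 12 held whichever single array was left out.

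The shared light chain B2m showed the same unevenness more strongly. It read 1393.5, 1401.6 and 1097.2 in neonates and 7235.7, 1415.5 and 4952.4 at 1 week, so that array 2 lay barely above the highest neonatal value. Its rise of 1.52 ± 0.36 (adjusted p = 0.0227) was lost without any array other than the 1-week array 2 (adjusted p = 0.065 to 0.143), and without that array it was firmer (adjusted p = 9.67e-06). The median signal of that array was 221.5, the highest of the 6, and its actin ratio was 1.084; the part of array quality in the B2m value was not tested.

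Psmb8 and Psmb9 encode catalytic subunits that replace Psmb5 and Psmb6 in the immunoproteasome, the form of the protease that favours peptides suited to class I molecules. Psmb9 read 29, 22.8 and 24.2 in neonates and 128.3, 220.2 and 173.6 at 1 week (2.75 ± 0.40, adjusted p = 0.000191). The neonatal values lay well under the background level, and with values floored there the change was 0.45 and did not pass. Psmb8 read 146.5, 184.6 and 158.2, then 614.6, 310.3 and 471 (1.46 ± 0.37, adjusted p = 0.0366), a call that held only with all arrays or without the 1-week array 2 and was otherwise lost (adjusted p = 0.0818 to 0.151). The third immunoproteasome subunit, Psmb10, differed by 0.42 and did not pass, with 1039.5, 1033.2 and 1026.7 in neonates and 1254.5, 1276.9 and 1653.3 at 1 week. The subunits they replace differed little: Psmb5 by 0.06, Psmb6 by 0.05 and Psmb7 by -0.13, all with overlapping arrays. Of the 27 measured genes of the constitutive proteasome, 0 rose and 0 fell, with a median of -0.10. The peptide transporter subunits Tap1 (0.78, adjusted p = 0.275) and Tap2 (1.32, adjusted p = 0.315) did not pass.

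**Figure D2:**
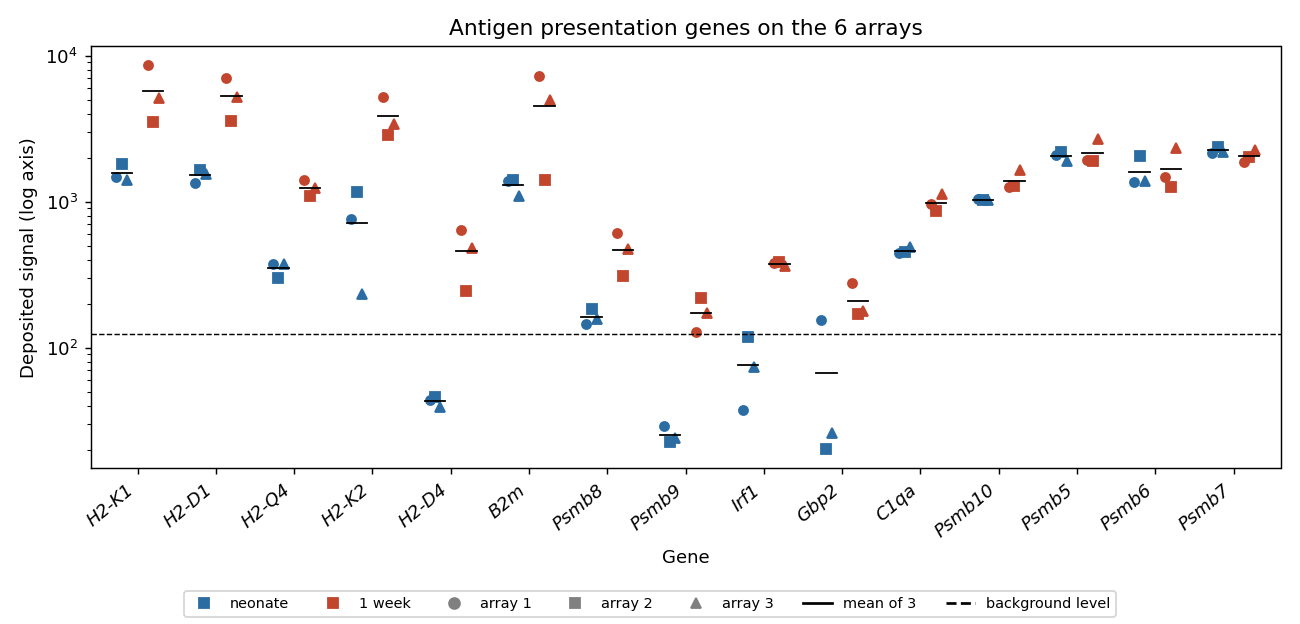
Deposited signal (log axis) of 15 genes of antigen presentation, interferon response and the proteasome on the 3 neonatal (blue) and 3 1-week (red) arrays; symbols mark array 1, 2 and 3, short bars the group means and the dashed line the background level of 124.6. The 1-week signals of the class I heavy chains lie above all neonatal ones, while B2m on the 1-week array 2 (1415.5) sits at the neonatal level and Psmb5, Psmb6 and Psmb7 overlap.

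Irf1, a transcription factor induced by interferons that acts on class I genes, rose with small spread at the later age. It read 37.3, 118.9 and 74.3 in neonates and 380.5, 385.4 and 362.7 at 1 week (2.44 ± 0.31, adjusted p = 5.31e-05). All neonatal values were under the background level, and with values floored there the rise was 1.59 (adjusted p = 0.000229). Of 24 measured genes of the interferon response, 2 rose (Irf1 and Gbp2), where 1.47% of all genes did, 0 fell and 22 did not pass. Of the 24, 11 were below the background level at both ages, so that their lack of a call says little. The median of the list was 0.20. Gbp2, a guanylate-binding protein, went from 154.5, 20.2 and 26.2 to 277, 169.2 and 178.2 (2.22 ± 0.51, adjusted p = 0.0178). It lost its call without the 1-week array 1 (0.0872), the neonatal array 2 (0.136) or the neonatal array 3 (0.0967). None of the 15 measured genes of class II presentation, which marks professional antigen-presenting cells, passed in either direction, and their median was -0.02. Among these 15, 6 were below the background level at both ages.

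Markers of resident macrophages were higher at 1 week as a sum, though a single marker passed. C1qa, a chain of the first complement component that cardiac macrophages make, rose from 446.9, 452.1 and 487 to 958.3, 863.2 and 1126 (1.08 ± 0.17, adjusted p = 0.000348). C1qc (0.73, adjusted p = 0.0928) and C1qb (0.52, adjusted p = 0.336) did not pass. Of 18 measured macrophage markers, 1 rose, where 1.47% of all genes did, and 0 fell, with a median of 0.36. Their summed signal was 4752 to 5087 in neonates and 6982 to 7209 at 1 week. The 13 markers of T and B lymphocytes summed to 1366 to 1542 and 1627 to 1781, with 8 of them below the background level at both ages. The 15 of granulocytes, mast cells and natural killer cells summed to 1928 to 2324 and 1848 to 2014, also with 8 below that level. The part of these cells in the class I rise was not tested.

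The largest change of any gene was that of Mapt (Entrez gene 17762, chromosome 11), which encodes tau, a protein that binds and stabilises microtubules and is best known from neurons. Its brightest probe set read 15, 29.1 and 33.9 in neonates and 847.1, 1004.5 and 1322.4 at 1 week (5.40 ± 0.30, adjusted p = 2.05e-11). The neonatal level was at background, and floored there the rise was 3.06 (adjusted p = 5e-08). A second probe set went from 132.1, 167.9 and 131.8 to 571, 509 and 595.4 (1.96 ± 0.25, adjusted p = 5.31e-05), and the other one from 166.3, 294.8 and 213.9 to 628.4, 405.6 and 526.9 without passing (1.23, adjusted p = 0.177). All 3 probe sets of Mapt thus lay higher at 1 week on every array, by differing amounts. Of 22 measured markers of neurons and Schwann cells, 0 rose and 1 fell (Vip), with a median of -0.09. Their sums were 4051 to 4324 in neonates and 4113 to 4581 at 1 week, and 11 of the 22 were below the background level at both ages.

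Of 40 measured genes of microtubules and the cytoskeleton, 3 rose and 1 fell, with a median of 0.01. Besides Mapt these were the alpha tubulins Tuba4a, which is abundant in muscle (341.8, 507.6 and 387.2 to 656.1, 579.3 and 1034.3, a rise of 0.85 ± 0.20, adjusted p = 0.0205), and Tuba8 (0.71 ± 0.17, adjusted p = 0.0222). Ank3, an ankyrin that anchors membrane channels, fell by 0.75 on the log2 scale (SE 0.19, adjusted p = 0.035). Except for Mapt these calls were fragile. Tuba4a lost its call without the 1-week array 3 (0.159), the neonatal array 1 (0.138) or array 3 (0.0701), Tuba8 without any array but the 1-week array 2 and the neonatal array 1 (0.0612 to 0.162), and Ank3 without any of the 6 (0.0626 to 0.13).

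Of 20 measured fetal contractile isoforms 5 passed, where 2.31% of all genes did, and their summed signal was 112370, 120227 and 127780 in neonates and 90297, 94445 and 109227 at 1 week. The 22 genes of the adult contractile apparatus summed to 191970, 201989 and 215389, then 228734, 217990 and 239185. Neither sum overlapped between the ages, the fetal one being lower at 1 week and the adult one higher. Of all tested probe sets, 18.5% likewise did not overlap. Myh7 gave a large part of the fetal difference, and myoglobin (Mb, group means 10272 and 20820) of the adult one. The sums therefore do not show a change of either list as a whole. Acta1, the skeletal form of alpha actin that the heart also makes, rose from 1275.1, 1422.6 and 1596.8 to 4386.7, 4754.2 and 4279.9 (1.65 ± 0.23, adjusted p = 0.000129), a 3.14-fold difference with narrow groups. The cardiac form Actc1 differed by 0.01, with 21749.4, 23777.3 and 26430.1 in neonates and 23048.8, 24336.3 and 25066.9 at 1 week. The slow or fetal myosin heavy chain Myh7 fell from 22725.5, 28603 and 28491.9 to 9034.7, 9651.5 and 14354, by 1.30 on the log2 scale (SE 0.33, adjusted p = 0.0384), whereas the adult form Myh6 differed by 0.19 and did not pass. The Myh7 groups were well apart, but its call was lost without any array other than the 1-week array 3 (adjusted p = 0.0795 to 0.137).

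The skeletal-type beta tropomyosin Tpm2 fell from 1791, 2004.3 and 1844.5 to 992.6, 1095.9 and 698.4 (-1.04 ± 0.22, adjusted p = 0.0109), and lost its call without the 1-week array 3 (0.0933) or the neonatal array 2 (0.0657). Csrp1, a LIM protein of the actin cytoskeleton, fell by 0.97 on the log2 scale (adjusted p = 0.0166) and lost its call without the 1-week array 1 (0.0595), array 2 (0.0501) or the neonatal array 1 (0.116). Fhl2, a LIM-only protein of the sarcomere, rose from 4955.9, 5568.5 and 5604.1 to 8720.9, 8946.1 and 7962 (0.67 ± 0.13, adjusted p = 0.00377). The fetal list had 2 members that rose (Acta1 and Fhl2), 3 that fell (Myh7, Tpm2 and Csrp1) and 15 that did not pass, with a median of -0.19. The slow troponin I gene Tnni1, the fetal partner of Tnni3, stayed at 23506, 27565.3 and 31345.9 in neonates and 24425.3, 22539.9 and 28670.9 at 1 week (-0.12, adjusted p = 0.921). Tnni3 differed by 0.21 (adjusted p = 0.788). Of 22 measured genes of the adult contractile apparatus, 1 rose: Mb, the oxygen-binding myoglobin, went from 7607.2, 9391.1 and 13818 to 20133, 21067.2 and 21261.2 (1.06 ± 0.27, adjusted p = 0.0342). Its call was lost without any array other than the neonatal array 3 (0.0715 to 0.215), and its dim second probe set, under the background level on all 6 arrays, differed by -1.31 without passing.

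**Figure D3:**
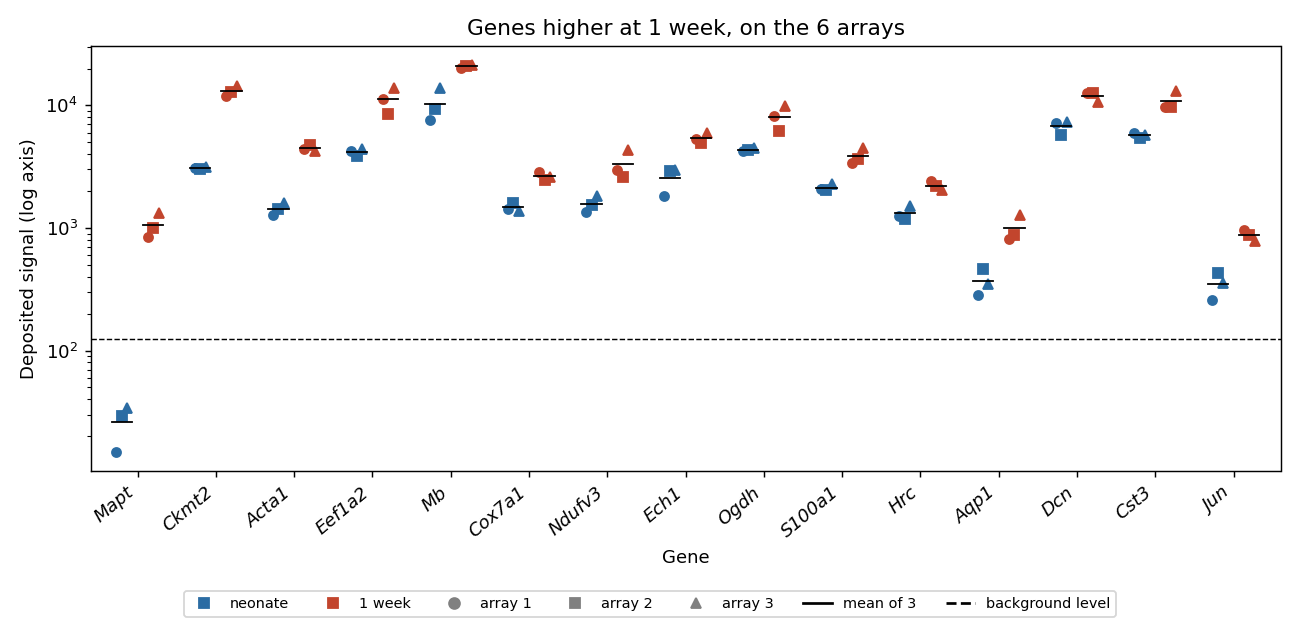
Deposited signal (log axis) of 15 genes that rose between neonate (blue) and 1 week (red), on each of the 3 arrays per age; short bars are group means and the dashed line is the background level of 124.6. Mapt moves from background to 847.1 to 1322.4, and Ckmt2 and Acta1 show the next widest gaps between tight groups.

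Muscle-specific forms of a kinase, an elongation factor and an oxidase subunit rose. Ckmt2, the mitochondrial creatine kinase of striated muscle that loads ATP energy onto creatine, went from 3068.7, 3033.1 and 3155.4 to 11929.2, 12949.4 and 14427.5 (2.08 ± 0.24, adjusted p = 1.13e-05), more than 4-fold with hardly any spread in neonates. Eef1a2, the form of translation elongation factor 1A used by muscle and neurons, rose from 4282.6, 3852.6 and 4383.9 to 11252.4, 8551.6 and 13952.8 (1.40 ± 0.26, adjusted p = 0.00278). The general form Eef1a1 differed by 0.12 (adjusted p = 0.843). Cox7a1, the heart and muscle form of a cytochrome oxidase subunit, rose from 1437.7, 1589.9 and 1387.9 to 2849.3, 2442.4 and 2608.4 (0.84 ± 0.15, adjusted p = 0.0013), while the general form Cox7a2 differed by 0.08. For these 3 muscle forms the call held without any array.

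Sugar use gave further isoform differences. Hk2, the insulin-responsive hexokinase, rose from 863.8, 784.9 and 954.5 to 1544.9, 1233.9 and 1242.4 (0.62 ± 0.14, adjusted p = 0.0129), and the form that dominates earlier, Hk1, differed by -0.59 without passing (adjusted p = 0.076). Eno3, muscle enolase, rose from 9450.1, 10784.1 and 10549.2 to 15147.3, 13761 and 18254.8 (0.61 ± 0.15, adjusted p = 0.0293). Hk2 lost its call without the 1-week array 1 (0.0879), the neonatal array 1 (0.0502) or array 2 (0.0911), and Eno3 without any array but the 1-week array 2 (0.0627 to 0.154). Of 28 measured genes of glycolysis and glycogen, 2 rose (Hk2 and Eno3), 1 fell and 25 did not pass, with a median of -0.04. The member that fell was Gbe1, the glycogen branching enzyme (-1.34 ± 0.31, adjusted p = 0.0187), from 373.8, 339.7 and 224.9 to 109, 154.4 and 105.3. Its call was lost without the 1-week array 1 or 3 or the neonatal array 1 or 2 (0.0714 to 0.116). Gyg, glycogenin, which primes glycogen synthesis and was not on that list, was among the 20 largest falls and read 1835.5, 1506.3 and 1074.8, then 432.6, 515.6 and 609.9 (-1.48 ± 0.22, adjusted p = 0.000296).

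Oxidative phosphorylation, the mitochondrial chain that makes ATP, had 9 of 66 measured members that rose and 0 that fell. Of all genes, 1.47% rose. The median of the list was 0.22, with 49 members above 0. Besides Ckmt2 and Cox7a1 the calls were Ndufv3, Ndufa3, Ndufb11 and Ndufb7 of complex I, Uqcr11 of complex III, and Atp5o and Atp5e of the ATP synthase. Ndufv3 rose from 1353.7, 1548.8 and 1825.2 to 2961.4, 2620.2 and 4359.9 (1.05 ± 0.17, adjusted p = 0.000635) and Ndufa3 from 6226.7, 6772.1 and 6519.1 to 10081.1, 9473.5 and 14128 (0.77 ± 0.15, adjusted p = 0.00351). A further probe set of Ndufa3 differed by 0.19 and did not pass. The other 5 genes rose by 0.48 to 0.67. Those 5 calls were each lost without some single arrays, with adjusted p of up to 0.162 for Uqcr11, 0.204 for Atp5o, 0.242 for Atp5e, 0.21 for Ndufb11 and 0.187 for Ndufb7, and the neonatal arrays 1 and 2 and the 1-week array 3 were among those whose loss ended each of the 5. In the tricarboxylic acid cycle, 1 of 20 rose, Ogdh (4230, 4350.6 and 4505.1 to 8259.4, 6133.9 and 9907, a rise of 0.87 ± 0.17, adjusted p = 0.00425).

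Fatty acid uptake and oxidation, the main fuel route of the adult heart, had 28 of 34 members that rose from E12.5 to neonate, where 10.6% of genes rose, but 1 that rose and 1 that fell from neonate to 1 week, with a median of 0.07. Ech1, an auxiliary enzyme of beta oxidation, rose from 1819.6, 2896 and 2959.4 to 5279.3, 4943 and 5931 (1.10 ± 0.16, adjusted p = 0.000236). Acot1, a cytosolic acyl-CoA thioesterase, fell from 734.3, 1232.6 and 1140.1 to 532.4, 491.2 and 347 (-1.17 ± 0.24, adjusted p = 0.00869), a call lost without the 1-week array 3 (0.0706) or the neonatal array 2 (0.0772). Cpt1a, the liver-type carnitine palmitoyltransferase, was lower on every 1-week array (2363.6, 2868.6 and 1769.4 against 1065.4, 1467.6 and 1312.2) but did not pass (-0.85, adjusted p = 0.184).

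Among genes of calcium handling, 2 of 22 rose, 1 fell and the median was -0.16, where 1.47% of all genes rose and 0.837% fell. Slc8a1, the sodium-calcium exchanger that removes calcium from the cell after each beat, fell from 6830.5, 7206.3 and 5684.2 to 3329.6, 3413.7 and 2510.5, by 1.10 on the log2 scale (SE 0.17, adjusted p = 0.000438). S100a1, a calcium sensor that acts on the sarcoplasmic reticulum, rose from 2072.7, 2049.2 and 2276.6 to 3379.6, 3640 and 4500.3 (0.84 ± 0.14, adjusted p = 0.001). The changes of its 3 probe sets ran from 0.13 to 0.84, and 1 of them passed. Hrc, a calcium-binding protein inside that store, rose from 1243.3, 1189.9 and 1519.7 to 2406.9, 2191.1 and 2053.3 (0.76 ± 0.15, adjusted p = 0.00435). The calls of these 3 genes held without any array. The release channel Ryr2 (-0.09) and the calcium pump Atp2a2 (-0.05) differed little, with overlapping arrays.

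Bmp7 (Entrez gene 12162, chromosome 2), a secreted bone morphogenetic protein that acts in heart formation and counteracts fibrosis, was the largest fall. It read 662.6, 482.4 and 461.7 in neonates and 56, 63.5 and 63.4 at 1 week (-3.12 ± 0.44, adjusted p = 0.000158). The 1-week values lay under the background level, and floored there the change was -2.08 (adjusted p = 9.56e-09). Of 40 measured genes of BMP and TGF-beta signalling, 0 rose and 2 fell, where 0.837% of all genes fell, with a median of 0.12. The other was Tgfbi, a matrix protein induced by TGF-beta, which went from 631.1, 519.5 and 386 to 309.5, 220.9 and 214.7 (-1.04 ± 0.25, adjusted p = 0.0244) and lost its call without the 1-week array 2 or 3 or the neonatal array 1 or 2 (0.0719 to 0.17).

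Imprinted genes are read from the copy of a single parent, and many of them promote fetal growth. Of 20 measured members 2 fell and 1 rose, where 0.837% and 1.47% of all genes did, and the median was -0.39. Their summed signal overlapped, at 61159 to 65362 in neonates and 59577 to 66004 at 1 week. The imprinted RNA H19 is not in these counts or sums, because its probe set is also annotated to Mir675. That probe set was bright and fell, as given under other observations, so the overlap holds only for the members counted. Dlk1, a membrane-bound relative of Notch ligands, fell from 2771.8, 1850.3 and 1386.2 to 569.1, 434.6 and 531.8 (-1.92 ± 0.28, adjusted p = 0.000224). Peg3, a zinc finger protein, fell from 2978.8, 3563.3 and 3610.8 to 1226.4, 1352.8 and 1139.9 (-1.45 ± 0.21, adjusted p = 0.000191). Both calls held without any array. Igf2, the fetal insulin-like growth factor, did not move with them and read 16554.3, 13584.7 and 14693.9, then 12882.8, 14422.6 and 13194.8 (-0.14, adjusted p = 0.791). The cyclin-dependent kinase inhibitor Cdkn1c lay just outside the threshold (-0.91, adjusted p = 0.0511). Dcn, decorin, was the member that rose, and it belongs with the matrix genes below.

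**Figure D4:**
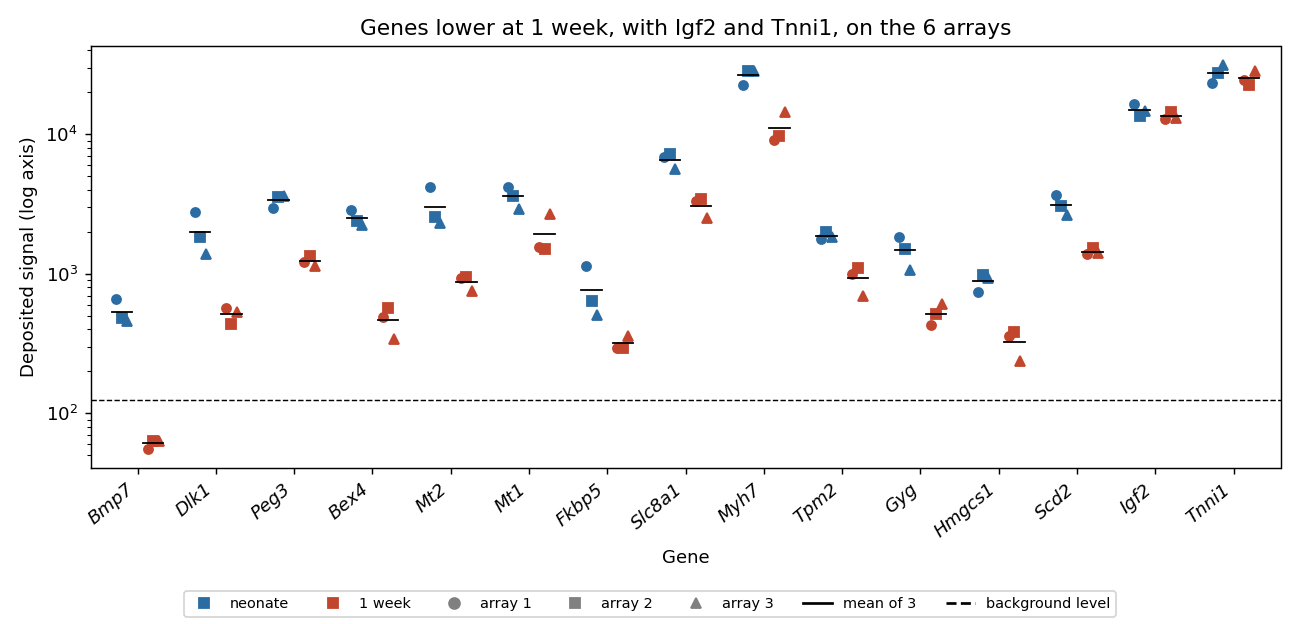
Deposited signal (log axis) of 13 genes that fell between neonate (blue) and 1 week (red), and of Igf2 and Tnni1, which did not pass, on each of the 3 arrays per age; short bars are group means and the dashed line is the background level of 124.6. Bmp7 drops from 461.7 to 662.6 to between 56 and 63.5, whereas the arrays of Igf2 and Tnni1 overlap.

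Bex4 and Bex1, small X-linked proteins of a brain-expressed family, were both among the 20 largest falls. Bex4 read 2856.9, 2398.1 and 2249.8 in neonates and 487.4, 574 and 338.7 at 1 week (-2.45 ± 0.33, adjusted p = 0.000124). Bex1 read 956, 701.2 and 501.1, then 171.2, 170.2 and 189.8 (-1.97 ± 0.51, adjusted p = 0.0399), but lost its call without any array (0.051 to 0.21). Both had clearly separate groups.

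Of the metal- and hormone-responsive genes, 3 fell. Mt1 and Mt2 encode metallothioneins, which bind zinc and are induced by glucocorticoids and metals, and Fkbp5 is a co-chaperone of the glucocorticoid receptor and a target of it. Mt2 fell from 4187.5, 2573.7 and 2313.9 to 933.9, 944.8 and 750.1 (-1.75 ± 0.31, adjusted p = 0.00197). Mt1 fell from 4227.8, 3614.9 and 2932.7 to 1568.7, 1504.1 and 2684.8 (-0.94 ± 0.24, adjusted p = 0.0413) and Fkbp5 from 1141.2, 635.7 and 508.7 to 295.6, 296.3 and 361.1 (-1.18 ± 0.25, adjusted p = 0.0095). On the neonatal array 1 all 3 genes were at their highest. Without that array Mt2 still passed (adjusted p = 0.0241), while Mt1 (0.215) and Fkbp5 (0.102) did not; Mt1 was also lost without the neonatal array 2 or the 1-week array 1 or 2 (0.131 to 0.15). In the list of thyroid and glucocorticoid response these were the 3 of 22 that changed, and the median was -0.18. The list of oxidative stress and detoxification had 0 of 33 that rose and 3 that fell, the metallothioneins and Cyp1b1, and its median was 0.00.

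No gene of cell division passed in either direction. Of 39 measured cell cycle genes 0 rose and 0 fell by limma, with a median of -0.27, and of 34 DNA replication genes 0 rose and 0 fell, with a median of 0.01; over all probe sets, 1269 had an unadjusted p under 0.05. The arrays of the proliferation marker Mki67 overlapped, with 420.3, 228.1 and 247.2 in neonates and 282.7, 350 and 151.1 at 1 week (-0.22 ± 0.62). The mitotic kinase Cdk1 read 1347.4, 723.4 and 829.4, then 812.5, 750.2 and 719.5 (-0.29 ± 0.63). The standard errors of these genes, which come from the fit on all 24 arrays, were wide. A change of moderate size was therefore not detectable by that fit. The cell cycle list summed to 31079 on the neonatal array 1, and to 18864 and 20314 on arrays 2 and 3. At 1 week the sums were 18343 to 20690. The replication clamp Pcna was measured more closely and differed by -0.11 ± 0.21. On either side of the interval these lists did move: 11 cell cycle and 14 replication genes fell from E12.5 to neonate, where 7.91% of genes fell, and 18 and 13 fell from 1 to 4 weeks, where 5.14% fell.

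Matrix genes rose in a few members. Of 42 measured genes of the interstitial matrix, 4 rose, where 1.47% of all genes did, 1 fell and 37 did not pass. Their median was 0.34, with 32 members above 0. Dcn, a small proteoglycan that binds collagen, went from 7174.5, 5688.6 and 7342 to 12554.9, 12657.4 and 10727.7 (0.84 ± 0.14, adjusted p = 0.001). Fbln1, a glycoprotein of elastic fibres, rose from 2492.7, 1859.1 and 2300.5 to 3685.8, 3187.3 and 5026 (0.82 ± 0.18, adjusted p = 0.0109). Mfap5, a microfibril protein, rose from 522.7, 507 and 600.8 to 907.9, 912.5 and 1082.7 (0.83 ± 0.21, adjusted p = 0.0402). A further probe set of Mfap5 differed by -0.06 and did not pass. The groups of all 3 genes were apart, and the call of Dcn held without any array. Fbln1 lost its call without the 1-week array 3 (0.0972) or the neonatal array 2 (0.0911), and Mfap5 without any array (0.0627 to 0.173). The abundant collagen Col1a1 did not pass, with 15034.8, 12384.5 and 11465.5 against 16952.4, 12666.5 and 16795.4 (0.25, adjusted p = 0.526).

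The remaining matrix calls rested on dim signals. Vtn, vitronectin, read 14.5, 23.2 and 39.6, then 77.5, 193.7 and 252 (2.72 ± 0.63, adjusted p = 0.0203). Floored at the background level its change was 0.55 and did not pass (adjusted p = 0.383), and its call was lost without the 1-week array 2 (0.0632) or 3 (0.124) or the neonatal array 1 (0.128) or 2 (0.0759). Spock2, a proteoglycan, fell from 443.6, 589.2 and 162.6 to 58.9, 85.7 and 36 (-2.62 ± 0.59, adjusted p = 0.0154). It lost its call without the 1-week array 3 (0.0998) or the neonatal array 1 (0.0874) or 2 (0.111), and floored at background it did not pass (-1.49, adjusted p = 0.0568). Brighter members of neighbouring lists were steadier. Cst3, cystatin C, an inhibitor of cysteine proteases, rose from 5924.6, 5448.4 and 5763.9 to 9753.9, 9718.2 and 13098.3 (0.91 ± 0.14, adjusted p = 0.000316). Itga7, a laminin-binding integrin of muscle, rose from 379, 337 and 326.8 to 569.6, 588.8 and 929.9 (0.97 ± 0.21, adjusted p = 0.0107), and lost its call without the 1-week array 3 (0.0965) or the neonatal array 2 (0.0507).

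Markers of fibroblasts and endothelial cells were higher at 1 week in sum. The share of all genes to set beside the rises among them is 1.47%. The 14 fibroblast markers, of which 3 rose (Dcn, Fbln1 and Mfap5, shared with the matrix list) and 0 fell, had a median of 0.46 and summed to 44521 to 54983 in neonates and 62008 to 67576 at 1 week. Of 17 endothelial markers 3 rose and 0 fell, with a median of 0.43, and the sum went from 16969 to 18248 up to 21577 to 29794. Aqp1, a water channel of capillary endothelium, rose from 285.2, 464.1 and 349.2 to 817.3, 884 and 1278.2 (1.44 ± 0.28, adjusted p = 0.00393), a call that held without any array. Cd34 rose by 0.97 ± 0.23 (adjusted p = 0.0239) and Sox18, a transcription factor of vessel formation, by 0.83 ± 0.17 (adjusted p = 0.00856). Cd34 was lost without the 1-week array 1 or 2 or the neonatal array 2 or 3 (0.0677 to 0.123), and Sox18 without the 1-week array 3 (0.0775) or the neonatal array 3 (0.0514).

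Of the 10 markers of smooth muscle and pericytes 1 rose, and their sums overlapped, at 12392 to 14526 in neonates and 12593 to 15061 at 1 week. It was Smtn, smoothelin, a cytoskeletal protein of contractile smooth muscle, from 101.2, 465.2 and 390.1 to 657, 547.5 and 1121.7 (1.49 ± 0.37, adjusted p = 0.0341). Smtn lost its call without the 1-week array 1 (0.064) or 3 (0.203) or the neonatal array 1 (0.225). Cnn1 (-1.22, limma adjusted p = 0.335) and Tagln (-0.58, 0.104) were lower on every 1-week array but did not pass. With values floored at the background level Cnn1 passed as a fall (adjusted p = 0.00013). Acta2 (group means 6972 and 6117) gave a large part of the sums and differed by -0.20. The remaining members differed by 0.11 to 0.67 and did not pass. Of 14 adipocyte markers 0 rose and 1 fell, and they summed to 6754 to 6990 in neonates and 5066 to 5508 at 1 week. The member that fell was Scd2, a stearoyl-CoA desaturase, from 3659.3, 3050.7 and 2644.5 to 1384.2, 1527.9 and 1420.5 (-1.10 ± 0.20, adjusted p = 0.00236), a call that held without any array. The 17 erythroid markers, mostly globins and blood cell proteins, summed to 40486 to 43139 in neonates and 55606 to 64918 at 1 week, with 0 calls. The 11 atrial markers summed to 29449 to 30855 and 21887 to 26941, again with 0 calls. Most of these sums came from Myl7 (group means 16703 and 14051) and Nppa (8487 and 5784), while Myl4 and Stard10 differed by 0.34 and 0.51. Whether the amount of atrial tissue differed was not tested. Skeletal muscle markers had 2 of 19 that rose, Acta1 and Eno3, which the heart also makes, and summed to 18575 to 19885 and 24889 to 27658. Markers of liver and lung epithelium had 0 calls each, but 10 of 15 and 3 of 4 of them were below the background level at both ages. A sum can rest on a few bright members. Scd2 (group means 3118 and 1444) weighed heavily in the shift of the adipocyte sums. Eno3 (10261 and 15721) and Acta1 did so in the skeletal muscle sums. Those 2 sums therefore do not describe their lists as a whole. What part the shifts in these sums had in the changes of single genes was not tested.

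Immediate early genes respond within minutes to growth signals, stress or stretch. Of 21 measured, 2 rose, where 1.47% of all genes did, and 0 fell, with a median of 0.49. They summed to 21574 to 23322 in neonates and 28816 to 31653 at 1 week. Jun, a component of the AP-1 transcription factor, rose from 260.2, 425.7 and 356.8 to 968.5, 880.9 and 784.7 (1.36 ± 0.22, adjusted p = 0.000635), a call that held without any array. Egr1, a zinc finger factor, rose from 480.9, 436 and 388.8 to 1026.7, 782.9 and 772.4 (0.98 ± 0.24, adjusted p = 0.0282). Its call was lost without any array other than the 1-week array 2 (0.0574 to 0.127).

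Among the largest changes outside these lists, many concerned dim probe sets. Abcc1, Blnk, Amelx and Bdnf had neonatal values of 11.5 to 75.9, and none passed with values floored at the background level, where their changes were 0.31, 0.30, 0.20 and 0.24. Brighter rises were those of Pcsk6, a protease that activates secreted growth factors (322.9, 116.5 and 303.8 to 794.5, 692.1 and 782, a rise of 1.74 ± 0.25, adjusted p = 0.000191), and of Tent5c, a poly(A) polymerase (319.9, 179.2 and 149.2 to 969.1, 574.6 and 1047.7, a rise of 2.03 ± 0.41, adjusted p = 0.00603). Both held without any array. Among falls outside the lists, Wdr92 had the brightest signal, with 22997.2, 16702 and 17178.7 in neonates and 7534.6, 8670.9 and 5122.9 at 1 week (-1.43 ± 0.20, adjusted p = 0.000161). Sqle and Hmgcs1, enzymes of cholesterol synthesis, both fell. Sqle lay between 405.5 and 663.4 in neonates and between 73.3 and 162.4 at 1 week (-2.15 ± 0.47, adjusted p = 0.0129) and lost its call without the 1-week array 2 (0.064) or the neonatal array 2 (0.0848). Hmgcs1 went from 740.5, 986.2 and 938.9 to 359.9, 380.8 and 238.2 (-1.46 ± 0.29, adjusted p = 0.00458) and kept it.

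The other large changes were less steady. Among the rises, Entpd2, an enzyme that breaks down extracellular ATP, went from 378.7, 429.8 and 146.6 to 1105.8, 969.1 and 743.2 (1.69 ± 0.36, adjusted p = 0.0109) and lost its call without the 1-week array 1 (0.0571) or the neonatal array 3 (0.0857). Bcl6, a transcriptional repressor, went from 112, 63.9 and 54.6 to 188.8, 299.4 and 269.8 (1.76 ± 0.43, adjusted p = 0.0293), and lost it without the 1-week array 2 or 3 or the neonatal array 2 or 3 (0.0839 to 0.117). Among the falls, Ncam1, a cell adhesion molecule, went from 831.3, 645.5 and 535.3 to 293.6, 347.4 and 224.9 (-1.22 ± 0.32, adjusted p = 0.0413) and kept its call only without the 1-week array 2 (otherwise 0.0518 to 0.228). A further probe set of Ncam1 differed by -0.11 and did not pass. Vip, Cyp1b1 and Lypd8 had neonatal values of 117.6 to 204 and 1-week values of 9.6 to 88.6, and with values floored at the background level their changes of -0.20, -0.33 and -0.53 did not pass. In the list of small nucleolar RNA hosts and ribosome biogenesis, 0 of 21 rose and 2 fell, Snhg5 (under the background level in the mean of both groups) and Snhg1 (-0.97 ± 0.25, adjusted p = 0.0435; lost without any array but the 1-week array 2, 0.0701 to 0.207). Of 30 ribosomal protein genes 0 rose and 0 fell, with a median of -0.07.

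The step from neonate to 1 week and the step from 1 to 4 weeks were compared by testing the difference between them. The second step spans more time than the first. A difference that passed does not show that a change ended at 1 week. Both steps share the 1-week arrays, so a high or low 1-week value enters both with opposite sign. Genes named for their change to 1 week therefore hold part of this difference from the outset. By limma, 218 probe sets passed this test (2.19%), and 182 genes (2.46%). From 1 to 4 weeks 5.09% of genes rose. H2-K1 rose by 1.78 and then differed by -0.81 (adjusted p = 0.0107), a difference between steps of 2.59 (adjusted p = 8.2e-05). Jun had group means of 348 ± 83.1 (SD, n = 3) in neonates, 878 ± 91.9 at 1 week and 384 ± 57.4 at 4 weeks, and its steps differed by 2.56 (adjusted p = 0.000261). Both were thus highest at 1 week among the first 4 ages. Mapt rose on to 2548 ± 602 at 4 weeks, with steps that differed by 4.14 (adjusted p = 3.41e-05), or by 1.79 with values floored at the background level (adjusted p = 0.0124).

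Slc8a1 stood at 6547 at E12.5 and 6574 ± 793 in neonates, then at 3085 ± 499 and 3253 ± 514 at 1 and 4 weeks, and its steps differed by -1.18 (adjusted p = 0.0345). The steps of Bmp7 differed by -3.10 (adjusted p = 0.0267), or by -2.08 with values floored at the background level (adjusted p = 2.77e-05). Fkbp5 instead fell and returned, from 762 ± 335 to 318 ± 37.6 and back to 759 ± 156, with a difference of -2.42 (adjusted p = 0.00212). Igf2 and Tnni1, which did not pass in this interval, fell from 1 to 4 weeks, with steps of -2.39 and -5.80, and the steps differed by 2.25 (adjusted p = 1.69e-05) and 5.68 (adjusted p = 1.19e-08). In the matrix list the steps of 14 of 42 genes differed upward, as did those of 1.20% of all genes. All 14 fell from 1 to 4 weeks, 2 of them (Fbln1 and Mfap5) after a rise to 1 week and the other 12, such as Col1a1 (1.90, adjusted p = 8.2e-05; -1.65 from 1 to 4 weeks), without passing in the step to 1 week.

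**Figure D5:**
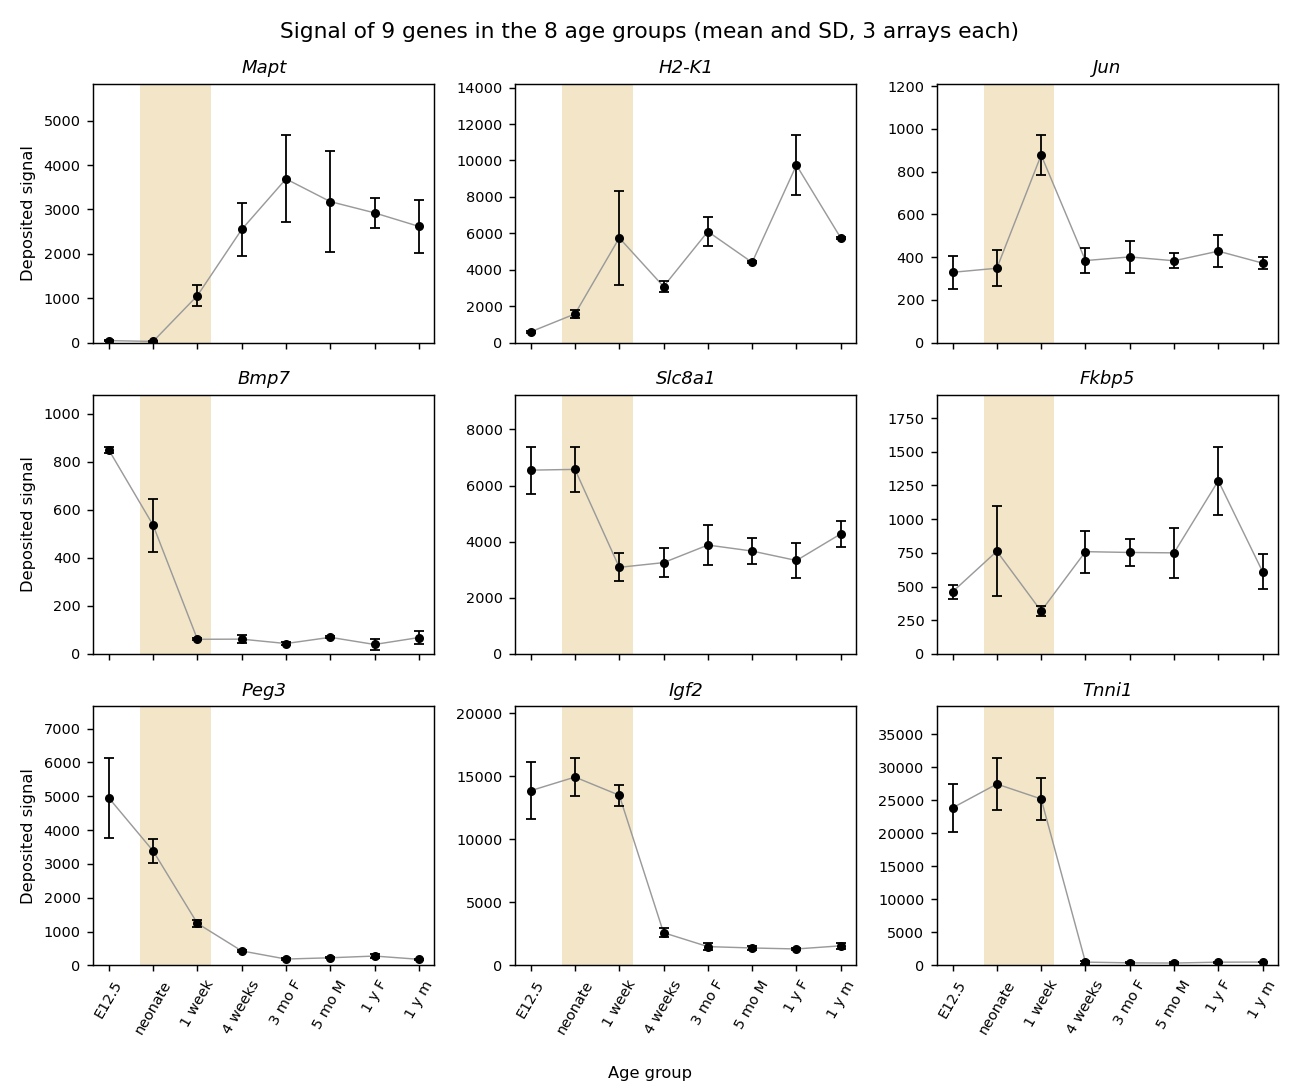
Mean deposited signal with SD (bars, 3 arrays per group) of 9 genes across the 8 age groups, on linear axes from 0; the shaded band spans neonate to 1 week. Mapt rises from 26 to 1058 and Bmp7 drops inside the band, Jun and Fkbp5 return to 384 and 759 at 4 weeks, and Igf2 and Tnni1 fall after it.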

How the data were processed

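Ventricles were measured on single-channel Affymetrix arrays. The authors deposited one intensity (signal) per probe set and array, already summarised and scaled; the 2% trimmed mean is 500.5 on each of the 6 arrays compared. The summarising software is not given in the sources used here. Values were floored at 14.2, the 25th percentile of the whole deposited table (rows of 0 and controls included), and taken as log2. Probe sets above the floor on at least 3 arrays were tested. limma 3.58.1 (R 4.3.3) was fitted to all 24 arrays with group means (16 residual degrees of freedom), eBayes with an intensity trend, and Benjamini-Hochberg adjustment at 0.05, two-sided; errors are SE. The background level, 124.6, is the 95th percentile of 19 non-mouse controls. Of the probe sets, 8724 carried 1 gene symbol, 346 several and 907 none; those with several or none were not named as genes. Arrays are numbered 1 to 3 by accession order.

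Named genes were the 20 largest rises and falls with separate groups and a group mean above background, up to 3 called and the 3 brightest members of each list, and fixed isoform pairs; clone and predicted-gene names were skipped. Called list members beyond 3 (Fhl2, Csrp1, Tuba8, Ndufa3, Ndufb7, Ndufb11, Uqcr11, Atp5o and Atp5e) fall outside this rule and were chosen after their values were seen. The same holds for further probe sets of Mapt, Mb, H2-D4, S100a1, Ndufa3, Mfap5 and Ncam1. It also holds for Mki67, Cdk1, Tap1, Tap2, C1qb, Ryr2, Myl4 and Stard10. Cnn1 and Tagln were likewise chosen after their values were seen. The members and lists were chosen with earlier results of these data known.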

Additional observations from a re-analysis of the deposited data

How the results depend on the processing

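Of 209 probe sets past the threshold (131 higher, 78 lower), 16 passed in the fit on 6 arrays (9 higher, 7 lower), 121 without the intensity trend (75 higher, 46 lower) and 324 with the floor at the background level (160 lower). Leaving out 1 array gave 109 to 240 in all, 70 to 132 higher and 33 to 108 lower. The difference between steps had 344 calls in place of 218 with the floor at background. Quantile normalization, log2 of signal plus 16 and the other filters kept all these counts within 1.5 times. No named gene reversed while called; of 79 named and called genes, 38 kept their call without any 1 array, 72 lost it on 6 arrays, 23 without the trend and 14 with the floor at background. No paired analysis was possible because the neonates and the 1-week animals carry different numbers in their titles. Signals under the background level limit the fold changes of dim genes, and 3 arrays a group limit the precision. The causes of these differences were not tested, except that the fit on 6 arrays holds fewer samples.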

Other observations

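Gene groups chosen after the values were seen are given here as counts, with no support drawn from them. Of 15 measured genes of sterol and isoprenoid synthesis, 0 rose and 3 fell (Hmgcs1, Fdps and Sqle), with a median of -0.53. Of 24 cold-inducible and hnRNP-family RNA-binding proteins, 0 rose and 5 fell (Cirbp, Rbm39, Hnrnpk, Hnrnpdl and Matr3), with a median of -0.51 and 22 members below 0. The Bex and Tceal family had 3 of 4 members that fell, with a median of -1.43. Of 14 genes of glycogen synthesis and breakdown 2 fell (Gyg and Gbe1), and of 18 aminoacyl-tRNA synthetases 2 fell (Eprs and Gars). The probe set annotated to both H19, an imprinted RNA beside Igf2, and Mir675, which lies within it, read 21693.6, 19892.1 and 18802.5 in neonates and 9870.6, 8544.8 and 8732.4 at 1 week (-1.15, limma adjusted p = 0.000161).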
